A study of Homo sapiens with 6 samples.

Results

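The MAP kinase phosphatases of the DUSP1 family are the 10 dual-specificity phosphatases that bind and inactivate MAP kinases, and they were examined in HEK-293T cells that expressed RfA1, a reflectin protein of squid. The members were taken by gene symbol, and all 10 were found among the 16655 genes of the expression table, of which 13002 had enough counts to be compared. The family was chosen because DUSP1 had been seen to be higher with RfA1 in these same libraries. The differences of the members between the groups are therefore given as a description and were not tested.

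HEK-293T cells derive from human embryonic kidney and express the large T antigen of SV40. The control cells were transfected with the GFP vector alone and the RfA1 cells with the same vector carrying GFP-tagged RfA1, each with a lipid reagent, and they were harvested 24 h later. There were 3 libraries per group. No sorting of transfected cells is described in the sources used here. A change in the number of responding cells and a change in RNA per cell therefore cannot be told apart.

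MAP kinases are switched on by phosphorylation of a threonine and a tyrosine in the activation loop, and these phosphatases remove both phosphates. The inducible nuclear members DUSP1, DUSP2, DUSP4 and DUSP5 are mostly products of immediate early or early genes, transcribed when the kinases are active. The cytosolic members DUSP6, DUSP7 and DUSP9 prefer ERK, and DUSP8, DUSP10 and DUSP16 prefer the stress kinases JNK and p38. Many members thus form negative feedback on the cascade that induces them.

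Total counts ran from 10272306 to 11566284 per library. All 10 markers fixed for HEK-293 cells were above 1 TPM (a level scaled for gene length) in each library. The summed level of 11 measured markers of other cell types was 17.2 to 21.2 TPM with GFP and 18.9 to 20.7 TPM with RfA1. The leukocyte marker PTPRC was at most at 0.03 TPM and the endothelial marker PECAM1 at most at 0.05 TPM. However, 4 of the 11 were above 1 TPM in each library, among them COL1A1 at 8.2 to 10.05 TPM and MYOD1 at 2.82 to 4.46 TPM. One of these markers, the epithelial adhesion gene EPCAM, was at 1.76 to 1.91 TPM in GFP cells and 2.87 to 3.49 TPM in RfA1 cells, and its part in the results was not tested. The summed level of 9 interferon response genes overlapped, at 34.4 to 50.5 TPM in GFP cells and 38.2 to 49.6 TPM in RfA1 cells. In each group 1 library stood apart from the other two. On the first principal component, which held 44.6% of the variance, RfA1 replicate 2 lay at 10.1, beside GFP replicates 2 and 3 at 18.2 and 12.3, while RfA1 replicates 1 and 3 lay at -16.5 and -22.0. GFP replicate 1 lay between, at -2.18, and by chi-square of the counts, divided by its degrees of freedom, it was nearer to RfA1 replicate 1 (5.40) than to GFP replicate 2 (7.90) or 3 (5.60), which were at 2.30 from each other. Values without RfA1 replicate 2 and without GFP replicate 1 are given with the members.

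The promoters of 3 members are shown first. DUSP1 and DUSP16 had the largest differences, and DUSP8 was taken as the only member besides DUSP1 whose window held the cAMP response element. Each is a RefSeq window (GRCh38.p14) from 250 bases before the transcription start to 50 bases after it, printed along the direction of transcription. All 3 lie on the minus strand, at chr5:172771146-172771445 for DUSP1, chr11:1572222-1572521 for DUSP8 and chr12:12562814-12563113 for DUSP16. Capitals mark the cAMP response element TGACGTCA, which CREB and ATF proteins bind, and the TATA box TATAAA.
DUSP1: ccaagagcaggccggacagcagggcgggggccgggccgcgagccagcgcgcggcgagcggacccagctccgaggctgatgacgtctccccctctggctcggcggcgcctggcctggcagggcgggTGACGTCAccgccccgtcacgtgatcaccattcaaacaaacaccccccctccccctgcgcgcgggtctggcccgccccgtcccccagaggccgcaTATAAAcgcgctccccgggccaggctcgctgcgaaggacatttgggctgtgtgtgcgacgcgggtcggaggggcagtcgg
DUSP8: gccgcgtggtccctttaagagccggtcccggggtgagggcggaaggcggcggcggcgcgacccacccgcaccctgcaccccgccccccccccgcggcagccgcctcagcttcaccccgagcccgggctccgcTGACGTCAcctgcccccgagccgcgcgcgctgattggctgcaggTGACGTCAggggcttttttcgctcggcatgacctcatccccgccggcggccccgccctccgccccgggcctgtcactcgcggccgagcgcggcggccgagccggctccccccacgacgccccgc
DUSP16: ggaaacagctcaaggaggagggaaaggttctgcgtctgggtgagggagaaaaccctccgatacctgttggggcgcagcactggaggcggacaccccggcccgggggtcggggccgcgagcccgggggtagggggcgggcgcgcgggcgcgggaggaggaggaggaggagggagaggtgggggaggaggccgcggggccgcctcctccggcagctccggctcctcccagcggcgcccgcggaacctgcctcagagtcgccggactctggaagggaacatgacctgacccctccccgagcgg

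In the DUSP1 promoter the cAMP response element began 125 bases and the TATA box 30 bases before the start. The DUSP8 promoter held the cAMP response element at 118 and at 74 bases before the start. The DUSP16 promoter held neither. For DUSP8 and DUSP16 the RefSeq window lies wholly before the start of the gene in GENCODE, at 1571920 and 12562383. The GENCODE start of DUSP1, at 172771195, falls inside its window. The distances and the absence of motifs given for DUSP8 and DUSP16 therefore hold for the RefSeq starts only. Windows were found for 8 of the 10 members, all but DUSP4 and DUSP5. The cAMP response element was in 2 of these 8 members, against 1.84% of all 34943 windows and 2.74% of the windows of tested genes. The TATA box, searched on both strands, was in 1 of the 8, against 11.6% of all windows and 6.23% of those of tested genes. The GC box GGGCGG, bound by SP1 proteins, was in 7 of the 8, DUSP6 being the exception, against 44.9% of all windows and 66.5% of those of tested genes. The AP-1 site TGACTCA and the CArG box of serum response factor were in none of the 8, against 4.96% and 1.3% of all windows and 3.28% and 1.14% of those of tested genes. The members were counted by gene, over 10 windows in all, whereas the shares were counted by window. These are matches of letters in a short window and not sites of binding.

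At the level of the transcripts, DUSP9 was the most abundant member and DUSP6 the least. Averaged over the 6 libraries, DUSP9, an ERK phosphatase, stood at 105.0 TPM, with a range of 95.2 to 116.4 TPM. DUSP1 followed at 44.6 TPM (28.8 to 64.8), DUSP8 at 31.7 TPM (28.2 to 37.1), DUSP7 at 24.3 TPM (21.9 to 26.2) and DUSP16 at 19.2 TPM (14.3 to 25.0). The other 5 members were low. DUSP5 was at 4.86 TPM (3.91 to 6.20), DUSP10 at 2.38 TPM (1.98 to 2.92), DUSP4 at 0.853 TPM (0.36 to 1.13), DUSP2 at 0.453 TPM (0.09 to 0.82) and DUSP6 at 0.233 TPM (0.15 to 0.35). The ranges of DUSP1 and DUSP8 overlapped, and so did those of DUSP7 and DUSP16, of DUSP4 and DUSP2, and of DUSP2 and DUSP6, so the order within these pairs is not set beyond the spread. The other neighbours did not overlap. The order was the same by FPKM, which is no separate check, since FPKM and TPM rank the genes of a library alike. It was also the same in the GFP libraries alone, which are part of the 6. In this line the phosphatase DUSP6, a widely used readout of ERK activity, was thus detected by only 4 to 10 counts per library.

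**Figure D1:**
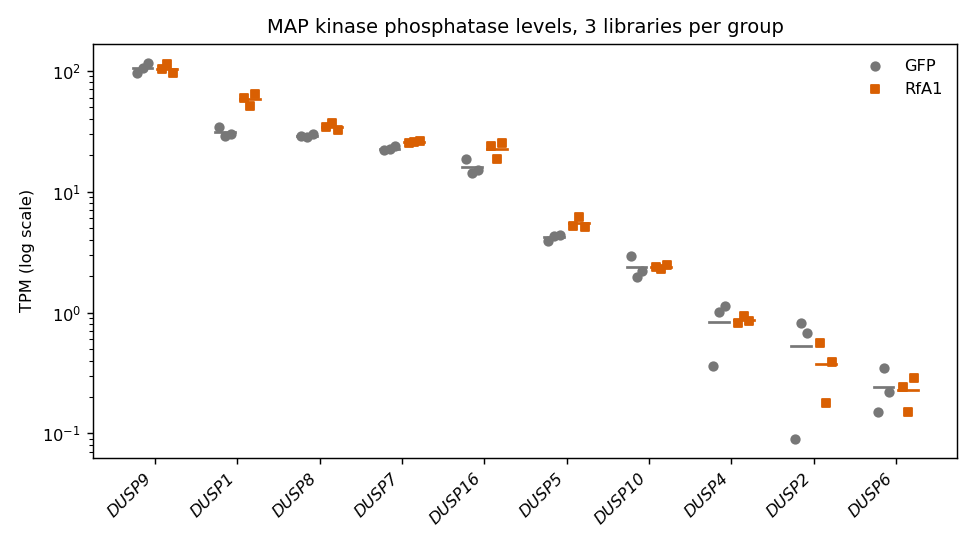
Level of each MAP kinase phosphatase in TPM (log scale) in the 3 GFP libraries (grey circles) and the 3 RfA1 libraries (orange squares), with lines at the group means. DUSP9 is highest in every library, and the clearest gap between the groups is that of DUSP1, at 28.8 to 33.9 TPM with GFP and 51.0 to 64.8 TPM with RfA1.

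The low-count filter removed 2 members. DUSP2 had 1, 10 and 8 counts in GFP replicates 1 to 3 and 6, 2 and 4 counts in the RfA1 libraries. DUSP6 had 4, 10 and 6 counts in the GFP libraries and 6, 4 and 7 counts in the RfA1 libraries. The groups overlapped for both, and no difference was detectable at this depth. Just inside the filter was DUSP4, with 15, 46 and 50 counts in the GFP libraries and 33, 39 and 32 counts in the RfA1 libraries.

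Among the inducible nuclear members, DUSP1 was higher in RfA1 cells by a log2 fold change of 0.85 (SE 0.092), a ratio of 1.81. This gene, on chromosome 5 at 172768090 to 172771195 (minus strand, GENCODE 29 on GRCh38), encodes the phosphatase first described as an immediate early gene of stress and growth factors, which acts on p38, JNK and ERK. Its level was 42.5, 38.04 and 38.32 CPM (counts per 1000000 of the TMM-adjusted library) in GFP replicates 1 to 3 and 70.7, 67.0 and 77.1 CPM in RfA1 replicates 1 to 3. The groups did not overlap, and their means were 39.6 ± 2.53 and 71.6 ± 5.10 CPM (SD, n = 3). The lowest RfA1 value was that of replicate 2. Of the tested genes, 0.146% had a larger log2 fold change. The log2 fold change was 0.90 without RfA1 replicate 2 and also without GFP replicate 1, and over 16 alternative ways of processing it ran from 0.80 to 0.92. DUSP1 was the only member past an adjusted p of 0.05, a threshold passed by 0.0769% of all tested genes, and nothing is read from this because the difference in DUSP1 chose the family. That call was lost when GFP replicate 2 (log2 fold change 0.82) or GFP replicate 3 (0.83) was left out.

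The other inducible nuclear members differed less. DUSP5, a nuclear phosphatase specific to ERK, was at 6.21, 7.24 and 7.15 CPM in the GFP libraries and 7.92, 10.3 and 7.62 CPM in the RfA1 libraries. The groups did not overlap, but the gap between 7.24 and 7.62 CPM was small beside the spread of the RfA1 libraries, and replicate 2 was the highest of them. Its log2 fold change was 0.33 (SE 0.16), 0.18 without RfA1 replicate 2 and 0.26 without GFP replicate 1. DUSP4, a close relative of DUSP1 on chromosome 8, was at 1.35, 4.06 and 4.41 CPM in the GFP libraries and 3.003, 3.72 and 3.05 CPM in the RfA1 libraries. The low value of GFP replicate 1 set most of its spread, and the log2 fold change was -0.013 (SE 0.33). It was -0.12 without RfA1 replicate 2 and -0.38 without GFP replicate 1, and it was above 0 in 10 of 16 alternatives.

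Of the JNK and p38 phosphatases, DUSP16 had the largest difference, at a log2 fold change of 0.43 (SE 0.11). DUSP16, on chromosome 12 at 12474210 to 12562383 (minus strand), encodes a phosphatase that binds JNK and p38 and can shuttle between cytoplasm and nucleus. It was at 65.8, 53.0 and 54.7 CPM in the GFP libraries and 80.5, 68.3 and 84.0 CPM in the RfA1 libraries. The groups did not overlap by CPM, with RfA1 replicate 2 only just above GFP replicate 1. By TPM these libraries crossed, at 18.5 TPM in RfA1 replicate 2 and 18.6 TPM in GFP replicate 1. The log2 fold change was above 0 in 16 of 16 alternatives, from 0.36 to 0.53, and was 0.51 without RfA1 replicate 2 and 0.53 without GFP replicate 1.

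DUSP8, a JNK phosphatase best known from brain and heart, was at 93.8, 96.5 and 100.9 CPM in the GFP libraries and 107.3, 127.1 and 99.7 CPM in the RfA1 libraries. RfA1 replicate 3 lay below GFP replicate 3, so the groups overlapped by CPM, whereas by TPM they did not (28.2 to 30.2 against 32.1 to 37.1 TPM). The log2 fold change was 0.20 (SE 0.097) and was 0.093 without RfA1 replicate 2 and 0.17 without GFP replicate 1. DUSP10, which acts on p38 and JNK, was at 5.40, 3.79 and 4.06 CPM in the GFP libraries and 4.004, 4.10 and 4.19 CPM in the RfA1 libraries. All RfA1 values lay within the GFP range, and the log2 fold change was -0.11 (SE 0.19), -0.11 without RfA1 replicate 2 and 0.059 without GFP replicate 1, with a sign that turned in 3 of 16 alternatives.

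The cytosolic ERK phosphatases had the smallest median difference, a log2 fold change of 0.027. It is the midpoint of only 2 members past the filter, which differed in sign. DUSP7 was at 48.6, 52.4 and 53.6 CPM in the GFP libraries and 54.0, 60.2 and 55.2 CPM in the RfA1 libraries. The groups did not overlap, by a margin of less than 1 CPM, and the log2 fold change was 0.13 (SE 0.087), 0.082 without RfA1 replicate 2 and 0.089 without GFP replicate 1. DUSP9, known for its role in placenta and on the X chromosome, was at 146.4, 170.6 and 182.4 CPM in the GFP libraries and 150.8, 183.5 and 139.0 CPM in the RfA1 libraries. The groups overlapped almost wholly, and the log2 fold change was -0.077 (SE 0.11). It was -0.20 without RfA1 replicate 2 and -0.16 without GFP replicate 1.

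The members also differed in base composition. The transcripts of DUSP9, DUSP8 and DUSP7 held 65.6%, 64.6% and 59.2% G and C, against a median of 49.2% over tested genes, while DUSP1 held 55.1% and DUSP16 47.1%. When the counts were corrected for GC content, the log2 fold change of DUSP8 moved to 0.37, that of DUSP7 to 0.26 and that of DUSP9 to 0.11, above 0. DUSP1 moved to 0.92 and DUSP16 to 0.39.

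**Figure D2:**
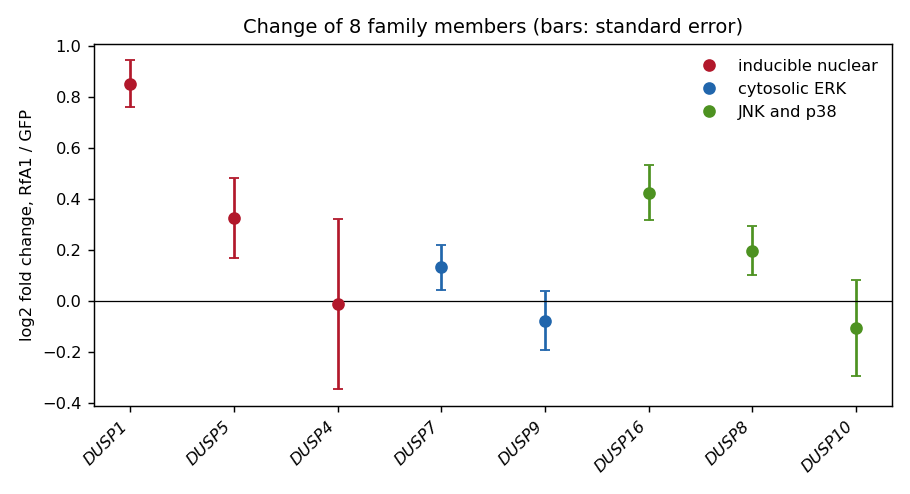
Log2 fold change of RfA1 over GFP for the 8 members that passed the filter on low counts, with bars of 1 standard error and colours for the 3 classes. DUSP1 stands at 0.85, DUSP16 at 0.43, and DUSP4, DUSP9 and DUSP10 lie at or below 0.

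**Figure D3:**
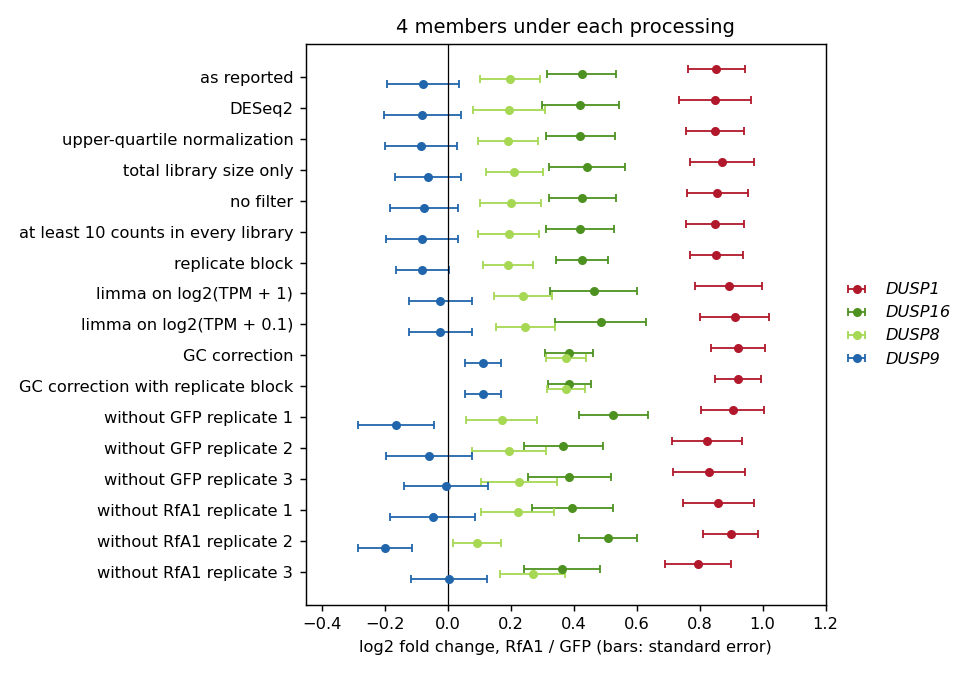
Log2 fold change of DUSP1, DUSP16, DUSP8 and DUSP9 (bars: standard error) as reported and under 16 alternative ways of processing. DUSP1 stays between 0.80 and 0.92, DUSP16 between 0.36 and 0.53, and DUSP9 is above 0 in 3 of the 16, among them both fits with a GC correction.

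By CPM, the groups did not overlap for 4 of the 8 members, DUSP1, DUSP5, DUSP7 and DUSP16, each higher with RfA1. This was so for 9.86% of all tested genes in that direction. No member was lower without overlap, against 8.01% of all tested genes. The family was chosen on this contrast, and these counts are a description only.

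Summed over the 10 members, the family stood at 205.9, 208.1 and 223.8 TPM in the GFP libraries and 254.5, 256.6 and 252.4 TPM in the RfA1 libraries, or 212.6 ± 9.76 against 254.5 ± 2.10 TPM (SD, n = 3). Without DUSP1 the sums overlapped, at 171.9, 179.3 and 193.8 TPM against 195.5, 205.6 and 187.6 TPM. The inducible nuclear class was at 36.5 ± 1.69 TPM in GFP cells and 65.0 ± 6.39 TPM in RfA1 cells, most of it DUSP1. The JNK and p38 class was at 47.3 ± 2.84 and 59.3 ± 1.32 TPM without overlap. The cytosolic ERK class, at 128.8 ± 11.4 and 130.2 ± 9.46 TPM, overlapped. TPM have no TMM adjustment, and on log2(TPM + 1) the median tested gene itself had a log2 fold change of 0.045. By TMM-adjusted counts that median was -0.0024. The share of DUSP1 in the family transcripts was 14.6% ± 1.68 in GFP cells and 22.9% ± 2.90 in RfA1 cells, while that of DUSP9 was 49.7% ± 3.001 and 40.9% ± 3.44. The share of DUSP9 did not overlap between the groups, whereas its own level did. Shares are parts of a fixed whole, so those of other members fall when DUSP1 rises. The share of DUSP7 was also lower without overlap, at 10.7% ± 0.111 and 10.2% ± 0.198, although its TPM was higher without overlap.

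**Figure D4:**
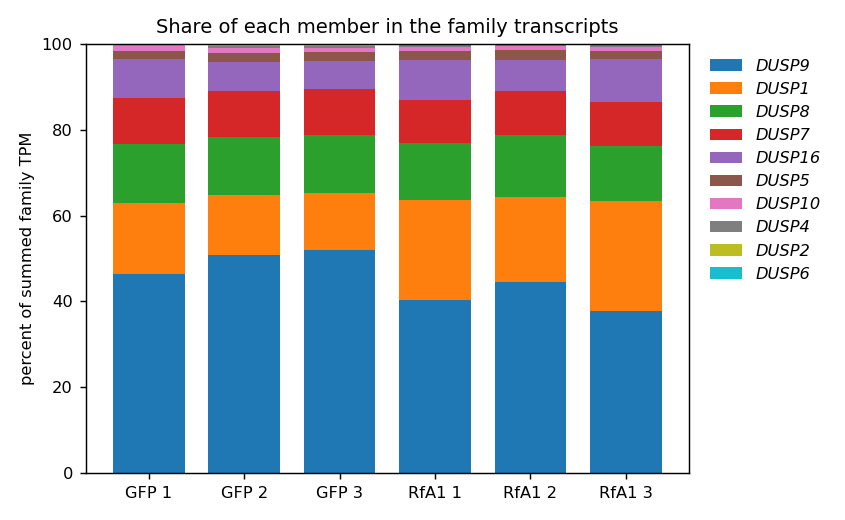
Share of each member in the summed TPM of the family, in percent, for each library. DUSP9 takes 46.3% to 52.0% of the bar in GFP libraries and 37.7% to 44.6% in RfA1 libraries, and DUSP1 13.4% to 16.5% and 19.9% to 25.7%.

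Members followed DUSP1 to different degrees over the 6 libraries. The Pearson r of log2 CPM with DUSP1 was 0.92 for DUSP16, 0.60 for DUSP7 and for DUSP5, 0.54 for DUSP8, near 0 for DUSP4, -0.15 for DUSP10 and -0.42 for DUSP9. These values describe 6 libraries that share their group difference and are no test. Among 12322 genes whose log2 CPM averaged 1 or more, the 5 whose pattern was most like that of DUSP1 included DNAJB9 (r = 0.995), a chaperone partner of the endoplasmic reticulum, PPARG (0.994), a nuclear receptor, and DEPDC1B (0.993). The measure does not compare the size of differences. DEPDC1B differed by a log2 fold change of 0.24, PPARG by 0.34 and DNAJB9 by 0.66.

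The rest of the pathway was compared through 7 lists of 183 genes, of which 171 could be tested with edgeR's quasi-likelihood test. After adjustment over all tested genes, 3 rose and 0 fell, while 0.0769% of all tested genes passed in either direction. By unadjusted p 28 were higher and 10 lower, against 7.3% and 6.64% of all tested genes. The lists were chosen with earlier results of these data known, so these counts are a description only. The 3 that passed were all immediate early genes. ATF3, a stress-induced transcription factor that binds the cAMP response element, rose from 116.0, 110.5 and 110.5 CPM in the GFP libraries to 172.6, 182.8 and 171.4 CPM in the RfA1 libraries (log2 fold change 0.64, SE 0.076, adjusted p = 0.0109). CSRNP1, a nuclear factor induced by AXIN1, rose from 17.7 ± 1.16 to 30.2 ± 2.98 CPM (log2 fold change 0.77, SE 0.11, adjusted p = 0.0345). CCN1, a secreted matrix protein, rose from 27.0 ± 1.89 to 43.5 ± 4.55 CPM (log2 fold change 0.69, SE 0.10, adjusted p = 0.0457). In all 3 genes every RfA1 library was above every GFP library.

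Each of these calls was lost in several fits that left out 1 library. Over the 16 alternatives ATF3 passed in 12, CSRNP1 in 9 and CCN1 in 10. ATF3 did not pass without GFP replicate 1, 2 or 3 or RfA1 replicate 1, with adjusted p of 0.0687 to 0.209 and log2 fold changes of 0.63 to 0.67. CSRNP1 and CCN1 passed only when RfA1 replicate 2 was the library left out, and with another library left out had adjusted p of 0.0544 to 0.304. With all libraries, CCN1 did not pass under upper-quartile normalization (adjusted p = 0.0502), nor did CSRNP1 with limma on log2(TPM + 1) (0.0558) or log2(TPM + 0.1) (0.0679).

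Without RfA1 replicate 2, 22 pathway genes passed as higher and 21 as lower, beside 1118 and 1520 of all tested genes. Among genes named in the following lists, those that passed in that fit were FOS (adjusted p = 0.00981), EGR1 (0.0202), SPRED3 (0.0210), IER3 (0.0314), EPHA2 (0.0424), SPRY2 (0.0423), MAPK8 (0.0124), DUSP28 (0.0310) and ETS2 (0.0476), each in the direction given for all libraries. None of these genes passed when any other library was the one left out. With the GC correction FOS (0.00564), EPHA2 (0.00147) and IER3 (0.00815) passed.

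Of the 30 immediate early genes, the other 27 did not pass, and the list had a median log2 fold change of 0.20, against -0.0024 over all tested genes. By unadjusted p, 10 of the 30 were higher and 1 was lower, against 7.3% and 6.64% of all tested genes. Chosen after their values were seen, FOS and EGR1 differed in direction. FOS, a subunit of AP-1, was at 5.78 ± 0.493 CPM with GFP and 10.0 ± 1.59 CPM with RfA1 (log2 fold change 0.79, adjusted p = 0.156). The other FOS and JUN genes of the list were not all higher. FOSL1 and FOSL2 had log2 fold changes of 0.64 and 0.23, JUN 0.083 and JUNB 0.027. FOSB and JUND were at -0.044 and -0.086. EGR1, a zinc finger factor induced through ERK, was at 32.2 ± 4.77 and 22.7 ± 4.11 CPM (log2 fold change -0.50, adjusted p = 0.242).

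In the list of ERK feedback and output genes, 16 could be tested, none passed, and the median log2 fold change was 0.17. By unadjusted p, 6 were higher and 1 was lower, against 7.3% and 6.64% of all tested genes. The lower one was SPRED3, an inhibitor of RAS signalling, at 5.30 ± 0.158 CPM with GFP and 3.25 ± 0.0764 CPM with RfA1 (log2 fold change -0.70, adjusted p = 0.179). Chosen after their values were seen, IER3 (log2 fold change 0.49, adjusted p = 0.234), the receptor EPHA2 (0.40, adjusted p = 0.250) and the feedback inhibitor SPRY2 (0.34, adjusted p = 0.253) were among the higher ones.

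No gene of the kinase cascades passed. In the ERK cascade 24 genes were tested, with a median log2 fold change of -0.043. Of these, 1 was higher and 0 lower by unadjusted p, against 7.3% and 6.64% of all tested genes. In the JNK and p38 cascades 36 were tested, with a median of 0.011. Here 4 were higher and 4 lower by unadjusted p, against the same shares of all tested genes. The kinase MAPK8, which is JNK1, had the smallest p, at 28.7 ± 2.28 and 36.0 ± 2.21 CPM (log2 fold change 0.33, adjusted p = 0.253).

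Neither of the other phosphatase lists held a gene that passed. Without adjustment, 1 atypical phosphatase was higher and 2 were lower, and 3 other MAP kinase phosphatases were higher and 0 lower. Of all tested genes, 7.3% were higher and 6.64% lower in this way. Among 24 atypical dual-specificity phosphatases the median log2 fold change was 0.0059, and DUSP28 had the smallest p, at 8.47 ± 0.636 and 6.41 ± 1.15 CPM (log2 fold change -0.40, adjusted p = 0.318). Among 14 other MAP kinase phosphatases the median was 0.14. PPP2CA, the catalytic subunit of protein phosphatase 2A, had the smallest p there, at 150.1 ± 9.75 and 171.4 ± 1.14 CPM (log2 fold change 0.19, adjusted p = 0.326). Of 27 factors that govern DUSP transcription and mRNA decay none passed, with a median of 0.063. In that list 3 were higher and 2 lower by unadjusted p, against the same shares of all tested genes. The ERK-responsive factor ETS2 was first by p, at 32.2 ± 2.43 and 39.8 ± 1.30 CPM (log2 fold change 0.30, adjusted p = 0.253).

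**Figure D5:**
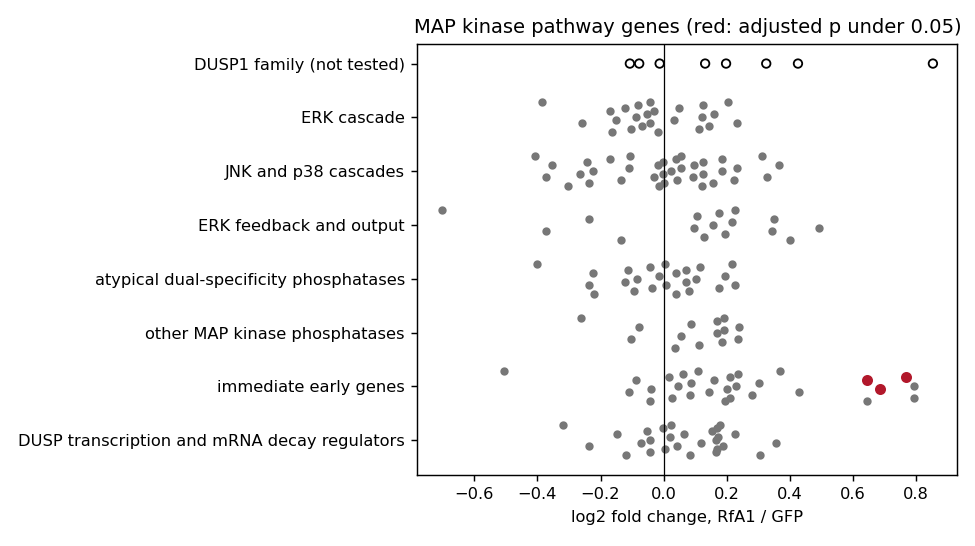
Log2 fold change of RfA1 over GFP for the 8 family members (open circles, not tested) and for the tested genes of 7 pathway lists (filled circles, red where the adjusted p was under 0.05). The 3 red points, ATF3, CSRNP1 and CCN1, are immediate early genes between 0.64 and 0.77, and the ERK cascade lies around 0.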

How the data were processed

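RNA-seq libraries of GFP cells (n = 3) and RfA1 cells (n = 3) were grouped by the sample titles. The authors deposited estimated counts per gene, without normalization and with 7.39% to 8.02% of values not whole. They also deposited TPM and FPKM, which the authors scaled for gene length and depth. The submitters' processing notes name HISAT and GRCh38.p13, and the counting tool, its annotation, its use of strand and the RNA-seq test are not given in the sources used here. The authors' averages over replicates were not used.

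Estimated counts were rounded, filtered with filterByExpr (minimum count 10, minimum total count 15), normalized by TMM and compared with the robust, two-sided quasi-likelihood test of edgeR 4.0.16 in R 4.3.3, with Benjamini-Hochberg adjustment over 13002 genes and a threshold of 0.05. CPM use the TMM library sizes. The script was tested on simulated data. Levels between genes, and the sums and shares of the family, were taken from TPM without TMM adjustment. Nothing in the labels says that the libraries came from separate cultures, so p-values measure the spread between these samples, which may be technical.

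The members and the gene lists were chosen with earlier results of these data known. Named were the 10 members, the genes of each pathway list that passed (at most 5, and the one lowest in p where none did), and the 5 genes whose log2 CPM had the highest Pearson r with DUSP1. Some genes that this rule names are not reported here. Alternatives were DESeq2 1.42.0, other normalizations and filters, limma 3.58.1 on log2(TPM + 1) and log2(TPM + 0.1), a replicate block, an unadjusted p, a spline on transcript GC content (GENCODE 29, 98.3% of genes matched) and each library left out in turn. Promoters came from a RefSeq table. Genes on the opposite strand overlap DUSP1 (AC022217.3), DUSP6 (AC024909.2), DUSP8 (KRTAP5-AS1) and DUSP16 (AC007619.1), and their reads may not be separable. Figures were drawn with matplotlib 3.10.9.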

Additional observations from a re-analysis of the deposited data

How the results depend on the processing

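The log2 fold change of DUSP1 ran from 0.80 to 0.92 over 16 alternatives, which is a description, since the family was chosen on it in these libraries. The order of the members by level did not change in GFP cells alone, which are part of the same libraries. It did not change by FPKM either, which could not reorder the genes within a library. Over all tested genes, 8 were higher and 2 lower with RfA1. The number higher was 17 with DESeq2, 4 with upper-quartile normalization, 4 with limma at either pseudocount, 146 with the GC correction, 949 by unadjusted p and 0 to 1118 when 1 library was left out. The number lower was 16 with DESeq2, 8 without a filter, 0 with limma at either pseudocount, 57 with the GC correction, 863 by unadjusted p and 0 to 1520 when 1 library was left out, the highest of both being without RfA1 replicate 2. Members past the threshold numbered 1, and 3 with the GC correction, 2 by unadjusted p and 0 to 2 when 1 library was left out. Pathway genes that passed numbered 3 higher and 0 lower. The higher ones were 2 with upper-quartile normalization and with limma at either pseudocount, 12 with the GC correction, 28 by unadjusted p and 0 to 22 when 1 library was left out, and the lower ones 10 by unadjusted p and 0 to 21. The causes were not tested.

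With the replicate number as a block there were 309 genes higher and 316 lower, 2 members past the threshold, and 10 pathway genes higher and 5 lower. With the block and the GC correction there were 309 higher, 154 lower, 4 members and 14 pathway genes higher. The numbers were not taken to pair the samples, since deviations from the group means correlated at 0.17, 0.32 and -0.14 for numbers 1, 2 and 3, and number 2 alone correlated best with its own number.

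Of 416 values for 26 single genes under an alternative, 400 kept their sign, and the 16 that did not belonged to DUSP4, DUSP9 and DUSP10. The genes outside the family were named by results from these same libraries, so their signs had little room to change. Depth limits DUSP2 and DUSP6, for which a counting error of 31.6% applies even at their highest count.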
